A study of Mus musculus with 60 samples.

Results

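Acnat2, Adm2, Fam129a, P3h4, Psca, Sh3tc1, Uts2b and Vil1 are 8 genes whose values stood higher in hepatocytes cultured with interleukin 6 (IL6) for 7 days than in hepatocytes cultured for 7 days without IL6 and in primary hepatocytes. They were chosen by their FPKM at day 7 among the 480 genes of the day 7 table, so their day 7 levels are a description and carry no test. Shares of genes at day 7 cover only those of the 480 that passed the filter, not the many more genes of the other tables. All 8 were followed in the table of cultured cells (19355 genes) and 7 in the table of regenerating livers (17473 genes), where Uts2b was not analysed. All 8 passed the filter of 1 FPKM (fragments per kilobase of transcript, scaled to the mapped reads) in at least 3 samples in the day 7 and cell tables, and 4 did in the liver table.

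By the labels all samples were WT and of strain C57BL/6, livers or liver cells, 60 in all in 20 groups of 3, measured by sequencing of mRNA. The study's methods used adult mice and raised single-cell clones from offspring of Albumin-Cre and R26RtdTomato mice, alleles that the labels of clone-1 do not name. The day 7 table holds primary hepatocytes, IL6-iHPCs-D7 (P0) and HCM-Hepa-D7 (P0). HCM is a hepatocyte culture medium with the growth factors EGF and HGF, and IL6-iHPCs arise in the same medium with IL6 added. The cell table holds hepatocytes, IL6-iHPCs at days 3 and 14 of the first culture (P0), passaged IL6-iHPCs of mouse-1 (P10 and P35), mouse-2 (P10) and clone-1 (P20), and the IL6-iMHs obtained from each of these 4 passaged lines in a maturation medium with oncostatin M. The liver table holds normal livers and livers 6 h, 24 h and 3, 7 and 14 days after partial hepatectomy (PHX). Clone-1 stems from a single hepatocyte, and mouse-1 P10 and P35 are the same line at different passages. These passages are counted as separate lines among the 4, so means over the 4 lines weigh mouse-1 more than mouse-2 or clone-1. At D3 and D14 the cell table has no culture without IL6 beside them, and the study's maturation medium names no IL6, so days in culture, passage and IL6 cannot be told apart there. The study describes the 3 samples of a cell group as technical repeats, so p-values there cover technical error only. For the other tables nothing states separate animals or cultures.

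Implied depth was 49 to 88.4 M reads (M, mega) per cell sample, 49.2 to 87.3 M per day 7 sample and 51.8 to 78.8 M per liver sample. Reads on 4 Y-linked genes numbered 994 to 1550 in each hepatocyte sample and 6575 to 9095 in each IL6-iHPCs-clone-1 sample, but 0 in each IL6-iMHs-clone-1 sample, so these libraries go against their shared label. Counts over all 4 lines are therefore given with and without clone-1. Such reads numbered 13066 to 18444 at D3 and 9185 to 10803 at D14, but 0 to 2 in every sample of mouse-1 and mouse-2, IL6-iMHs included. Each comparison of those lines with hepatocytes therefore also crosses this difference, and its part cannot be told apart from that of passage. Summed hepatocyte markers were 78517 to 84257 FPKM in hepatocytes and 467 to 594 at D3, and summed cholangiocyte markers were 6.25 to 9.14 in hepatocytes, with Krt7 and Cftr at 0. In PHX-D3 replicate 2, the correlation with its 2 replicates was 0.88 to 0.90.

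IL6 binds its receptor and the shared subunit gp130, which activates JAK kinases and the transcription factor STAT3. In liver it is known for the acute phase response and for its part in regeneration after loss of tissue. The 8 genes belong to no single pathway. Adm2 (adrenomedullin 2) and Uts2b (urotensin 2B) encode secreted peptides that act on receptors of other cells. Psca is a lipid-anchored surface protein of the Ly6/uPAR family, and Vil1 is villin, which bundles actin in microvilli. Acnat2 belongs to the acyl-CoA N-acyltransferases, relatives of the bile acid conjugating enzyme Baat. P3h4 is an endoplasmic reticulum protein of the complex that modifies collagen lysines. Fam129a (Niban1) is a stress-induced cytoplasmic protein, and Sh3tc1 has an SH3 domain and tetratricopeptide repeats and little known function.

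The 8 genes lie on 6 chromosomes (GRCm38, the build of the files, positions from GENCODE M21). Acnat2 is at chr4:49379840-49408151, Adm2 at chr15:89322720-89324731, Fam129a at chr1:151571186-151721939 and P3h4 at chr11:100408456-100414836. Psca is at chr15:74714839-74717069, Sh3tc1 at chr5:35697180-35739987, Uts2b at chr16:27353322-27370239 and Vil1 at chr1:74409376-74435559. RefSeq (GRCm38.p6) gave the 250 bases before a start site for 6 of the 8 genes, in 8 entries. These were searched on both strands for the STAT motif TTCNNNGAA, an ATF4-type motif TGATGNAA and the AP-1 motif TGANTCA, which were found in 7.02%, 3.45% and 6.75% of 32851 promoters. No entry held the STAT or the ATF4-type letters. AP-1 letters were found in 1 of the 2 Sh3tc1 entries and in Uts2b. The 4 sequences below belong to the genes with the widest gap between the media at day 7 (Acnat2, Vil1) and to those with AP-1 letters (Sh3tc1, Uts2b), run 5′ to 3′ along the gene's strand, and carry capitals only at AP-1 letters. These are descriptions of the windows, not sites.
Acnat2, chr4:49408152-49408401, minus strand: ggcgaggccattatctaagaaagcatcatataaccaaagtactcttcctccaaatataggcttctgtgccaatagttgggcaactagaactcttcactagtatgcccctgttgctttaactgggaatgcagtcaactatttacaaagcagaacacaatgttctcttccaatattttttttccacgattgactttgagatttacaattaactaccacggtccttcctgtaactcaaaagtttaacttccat
Sh3tc1, chr5:35739988-35740237, minus strand: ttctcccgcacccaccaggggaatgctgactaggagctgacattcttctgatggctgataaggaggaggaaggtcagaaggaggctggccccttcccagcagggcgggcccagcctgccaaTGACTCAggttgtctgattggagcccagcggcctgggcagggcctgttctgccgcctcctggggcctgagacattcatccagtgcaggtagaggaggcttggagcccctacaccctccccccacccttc
Uts2b, chr16:27370240-27370489, minus strand: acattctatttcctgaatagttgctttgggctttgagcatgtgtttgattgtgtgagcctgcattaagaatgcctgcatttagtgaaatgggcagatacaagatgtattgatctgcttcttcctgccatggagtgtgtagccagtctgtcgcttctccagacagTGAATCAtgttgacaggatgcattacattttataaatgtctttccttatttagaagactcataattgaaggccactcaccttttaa
Vil1, chr1:74409134-74409383, plus strand: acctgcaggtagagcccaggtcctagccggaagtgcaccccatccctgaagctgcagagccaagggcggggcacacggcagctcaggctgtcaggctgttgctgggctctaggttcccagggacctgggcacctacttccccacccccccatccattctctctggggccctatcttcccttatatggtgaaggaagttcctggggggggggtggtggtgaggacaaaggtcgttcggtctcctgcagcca

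At day 7 the secreted peptides were undetected in primary hepatocytes and stood highest with IL6. Adm2 was at 0 FPKM in all 3 primary samples, at 1.21, 1.03 and 1.39 in HCM-Hepa-D7 and at 4.21, 4.92 and 4.72 in IL6-iHPCs-D7. Uts2b was at 0 in primary hepatocytes, at 1.45, 1.52 and 2.47 in HCM-Hepa-D7 and at 4.43, 4.66 and 5.33 in IL6-iHPCs-D7. The 3 groups did not overlap for either gene. IL6-iHPCs-D7 stood 3.82-fold (Adm2) and 2.65-fold (Uts2b) above HCM-Hepa-D7, and at least 336-fold and 225-fold above primary hepatocytes, taking 3 reads over the group as the floor.

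The surface and cytoskeletal genes showed the same order. Psca was at 0 in primary hepatocytes, at 1.10, 1.37 and 1.60 FPKM in HCM-Hepa-D7 and at 3.24, 5.01 and 3.43 in IL6-iHPCs-D7 (2.87-fold). Vil1 was at 0.0321, 0.0518 and 0.0421 FPKM in primary hepatocytes, at 1.61, 2.36 and 1.97 in HCM-Hepa-D7 and at 8.93, 9.38 and 8.27 in IL6-iHPCs-D7 (4.48-fold). Villin thus had the wider gap between the media of the pair.

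Acnat2 differed in that the culture without IL6 was the lowest group. Its values were 15.2, 14.1 and 13.3 FPKM in primary hepatocytes, 11.1, 10.1 and 10.8 in HCM-Hepa-D7 and 69.6, 68.7 and 68.3 in IL6-iHPCs-D7, which is 6.45-fold above HCM-Hepa-D7 and 4.85-fold above primary hepatocytes. P3h4 was at 0.0428, 0 and 0.109 FPKM in primary hepatocytes, at 1.99, 2.28 and 2.04 in HCM-Hepa-D7 and at 5.03, 5.81 and 4.87 in IL6-iHPCs-D7 (2.49-fold). Acnat2 was thus the only one of the 8 already above 1 FPKM in primary hepatocytes.

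Fam129a was at 0.0246, 0.0454 and 0.0417 FPKM in primary hepatocytes, at 1.20, 1.4 and 1.4 in HCM-Hepa-D7 and at 6.23, 4.51 and 5.86 in IL6-iHPCs-D7 (4.14-fold above HCM-Hepa-D7). Sh3tc1 was at 0.252, 0.117 and 0.155 FPKM, at 4.43, 4.05 and 4.30 and at 10.1, 11 and 10.3 in the same groups (2.45-fold). For both, every cultured sample stood above every primary one. Of 276 genes that passed the filter, 65 (23.6%) had all 3 IL6 samples above the other 6, and 15 (5.43%) also had a mean at least 2-fold above both others. Those 15 are the 8 genes and Cebpd, Serpina7, Calml4, Nupr1, Eva1c, Igsf1 and Armcx2, named after their values were seen.

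**Figure D1:**
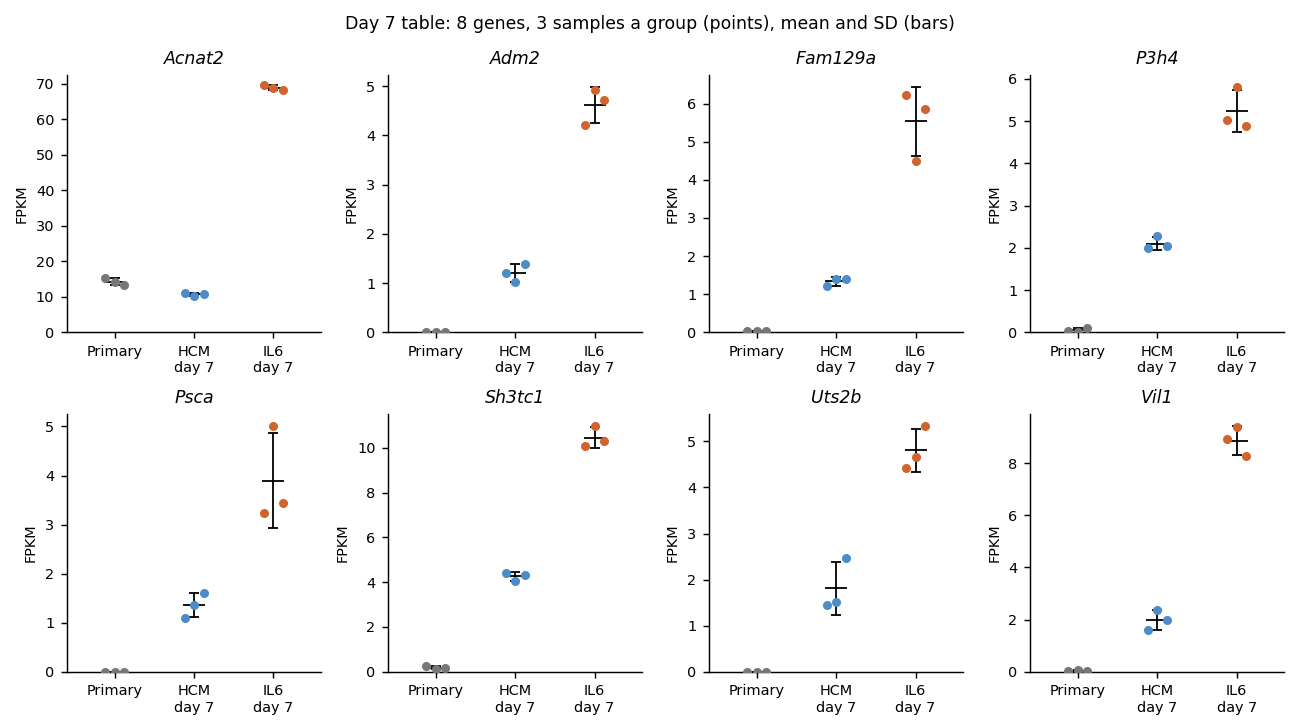
FPKM at day 7 for the 8 genes (1 panel each), with points for the 3 samples of primary hepatocytes, HCM-Hepa-D7 and IL6-iHPCs-D7 and bars for mean and SD. Every IL6-iHPCs-D7 point lies above the other 6, for Acnat2 at 68.3 to 69.6 against 10.1 to 15.2.

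Culture without IL6 was set beside primary hepatocytes as a description with no test, since these samples also chose the genes. For 7 of the 8 genes every HCM-Hepa-D7 sample lay above every primary one, beside 73.2% of the 276 genes. On the log2(FPKM + 1) scale the median difference was 0.87 over the 276 genes and 1.35 over the 8. Mean FPKM in HCM-Hepa-D7 was 47.1-fold (Vil1), 41.5-fold (P3h4), 35.8-fold (Fam129a) and 24.4-fold (Sh3tc1) that of primary hepatocytes, and at least 88.0-fold (Adm2), 84.8-fold (Uts2b) and 65.0-fold (Psca) the floor of 3 reads. For Acnat2 every HCM-Hepa-D7 sample lay below every primary one, at 0.752 times their mean, beside 21% of the genes.

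In the first culture with IL6, groups were compared by limma on log2(FPKM + 1), with p-values adjusted by Benjamini-Hochberg over 12328 genes and a call at an adjusted p under 0.05 and at least 2-fold. At D3, 2 of 8 had risen above hepatocytes, Adm2 and Fam129a, beside 53.9% of all genes (12.1% fell). By D14 all 8 had, beside 50% (12.9% fell). Of the 8 genes only Acnat2 was above 1 FPKM in hepatocytes. Before quantile normalization no other gene of the 8 could therefore be called lower than hepatocytes, here, in passaged IL6-iHPCs or in IL6-iMHs. Genes other than Acnat2 also passed the filter only through cultured groups, and all 8 were chosen for standing above primary hepatocytes at day 7. Counts and medians of the 8 above hepatocytes in these comparisons are therefore partly fixed by that choice and are descriptions. The median of all genes also shifted, by 1.14 at D3 and 1.00 at D14 on the log2 scale, so differences from hepatocytes are read against that shift. Under quantile normalization, which removes it, 2 genes were higher (Adm2, Fam129a) and 2 lower (Acnat2, Vil1) at D3, and 4 were higher at D14 (Acnat2, Adm2, Fam129a, P3h4). In bulk samples, fewer cells of a type and less RNA per cell cannot be told apart.

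Adm2 was at 0 in all hepatocyte samples, at 3.29, 3.45 and 3.99 FPKM at D3 and at 2.39, 1.72 and 2.29 at D14. Fam129a was at 0.0964, 0.135 and 0.102 in hepatocytes, at 3.86, 3.94 and 3.8 at D3 and at 5.91, 5.67 and 6.33 at D14. At D3 these genes stood 1.05 (Adm2) and 0.99 (Fam129a) above the shift of all genes, and the other 6 lay below it, at -0.62 (P3h4) to -1.30 (Vil1). P3h4 depended on the scale, since its mean at D3 was 4.46-fold that of hepatocytes. With a pseudocount of 0.1 (1.61, median of all genes 1.59) and with voom on the recovered reads (2.22, median 1.76) it was called higher at D3 as well, and with voom so was Sh3tc1 (1.21), below the median. Before that shift is taken off, Acnat2 differed from hepatocytes by 0.14, which turned to -1.12 under quantile normalization.

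The remaining 6 genes rose between D3 and D14, where 5.12% of all genes rose and 5.05% fell. At D3 only Acnat2, Adm2 and Fam129a were above 1 FPKM, so no other gene of the 8 could be called lower at D14. Acnat2 was at 7.50, 8.33 and 8.99 FPKM in hepatocytes, at 8.02, 9.73 and 10.1 at D3 and at 67.2, 70.0 and 62 at D14, so that D3 overlapped hepatocytes and D14 stood 7.17-fold above D3 (log2 difference 2.72, SE 0.09, limma adjusted p = 1.10e-20). Vil1 was at 0.331, 0.472 and 0.421 in hepatocytes, at 0.192, 0.393 and 0.188 at D3 and at 4.74, 4.67 and 5.04 at D14 (log2 difference D14 to D3 2.21, SE 0.10). P3h4 was at 0.592, 0.615 and 0.671 at D3 and at 4.61, 4.07 and 4.88 at D14 (1.76, SE 0.11). No D3 sample of these 3 genes reached a D14 sample, and 7 of the 8 genes had every D14 sample above every D3 sample, beside 25.7% of all genes. Summed cholangiocyte markers, of cells in which villin is also known, moved the same way, from 372 to 543 FPKM at D3 to 4097 to 4522 at D14, and their part in these values was not tested. They include Sox9 and Krt19 (Ck19), which the study used as hepatic progenitor markers of IL6-iHPCs.

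Sh3tc1 went from 0.765, 0.638 and 0.659 FPKM at D3 to 3.44, 2.94 and 3.19 at D14 (log2 difference 1.31, SE 0.07). Psca had 2 reads in all at D3 and stood at 1.99, 1.05 and 1.26 at D14 (1.25, SE 0.12). Uts2b was at 0, 0.141 and 0.12 at D3 and at 1.59, 1.19 and 1.53 at D14 (1.16, SE 0.25, limma adjusted p = 1.69e-04). Psca and Uts2b therefore started at or near 0, as in hepatocytes. Between D3 and D14, Fam129a differed by 0.52 and Adm2 by -0.55 on the log2 scale, both under the fold limit (limma adjusted p = 3.46e-04 and 1.24e-03). Over all genes the median log2 difference was -0.16, and over the 8 genes it was 1.28.

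**Figure D2:**
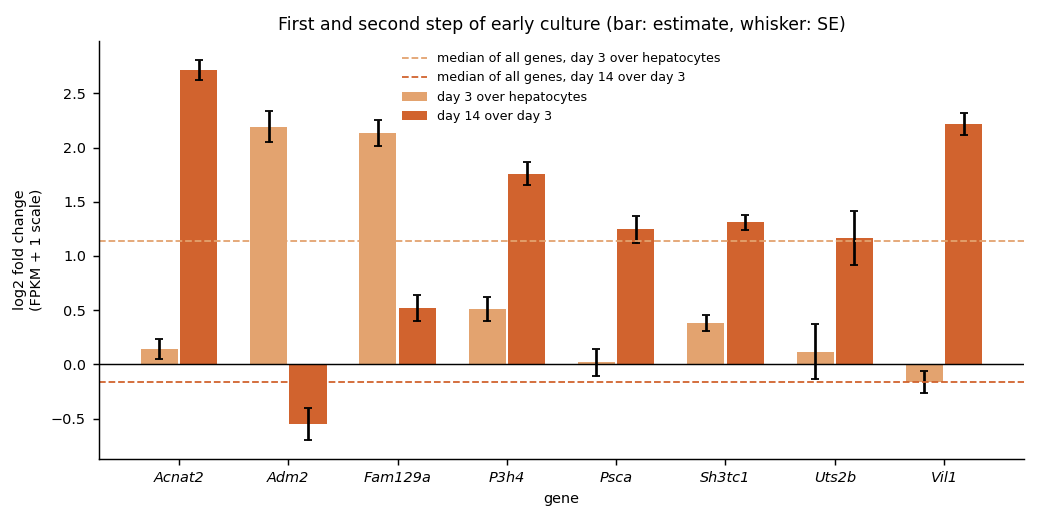
Log2 difference of each gene from hepatocytes to D3 and from D3 to D14 (bars, with SE), with dashed lines at the median of all genes (1.14 and -0.16). On this scale of log2(FPKM + 1), Adm2 and Fam129a have their larger bar at D3, and the other 6 at D14.

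In passaged IL6-iHPCs, the mean of the 4 lines stood above hepatocytes for all 8 genes, beside 48.1% of all genes that rose and 11.3% that fell. The median log2 difference was 0.93 over all genes and 2.40 over the 8. It was 2.86 over the 8 with the 3 genes at 0 in hepatocytes set at a bound without a pseudocount. That value is not on the scale of the 0.93. With clone-1 left out 7 of 8 were called (P3h4 missed the limit at 0.93), and under quantile normalization 5. This and the comparisons of D3, D14 and IL6-iMHs share the same hepatocyte samples, and the choice of the 8 genes above primary hepatocytes bears on all of them. The lines differed among themselves, and each line had 6 of 8 higher, beside 40% (mouse-1 P10), 42.8% (mouse-2), 51.5% (the clone) and 54.3% (mouse-1 P35) of all genes. Psca, Sh3tc1 and Vil1 rose in all 4 lines.

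Psca, at 0 in hepatocytes, was at 7.13, 5.13 and 6.32 FPKM in IL6-iHPCs of mouse-1 P10, at 35, 35.5 and 33.8 in mouse-2, at 42.7, 45.7 and 49.2 in the clone-1 line and at 37.9, 39.2 and 37.6 in mouse-1 P35. Sh3tc1, at 0.290 to 0.296 FPKM in hepatocytes, was the most even of the 8, between 8.08 and 14.8 in all 12 passaged samples (mean over the 4 lines 3.21 above hepatocytes on the log2 scale, SE 0.06). Vil1 was at 9.68, 6.58 and 6.83 in mouse-1 P10, at 2.17, 2.47 and 2.57 in mouse-2, at 14.2, 14.5 and 14.2 in the clone-1 line and at 2.03, 2.34 and 1.94 in mouse-1 P35. Clone-1 was thus highest for all 3 genes, and mouse-2 and mouse-1 P35 overlapped for Vil1.

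Acnat2 differed widely between lines, at 149, 137 and 132 FPKM in mouse-1 P10 and 231, 228 and 231 in mouse-2, against 6.41, 6.69 and 8.05 in mouse-1 P35 and 1.09, 0.601 and 0.881 in clone-1. Mouse-1 P35 overlapped hepatocytes and clone-1 fell below them (log2 difference -2.32). Clone-1 was called lower than hepatocytes for Acnat2 only, 1 of 8 and the only gene of them above 1 FPKM in hepatocytes, beside 10.4% of all genes. Between P10 and P35 of mouse-1, Acnat2 fell by 4.13, Adm2 fell by 2.85 and Vil1 fell by 1.47 on the log2 scale, beside 8.94% of all genes that fell. Psca (2.46), Fam129a (2.44) and Uts2b (1.36) rose in the same comparison, beside 24.8%.

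Fam129a was at 70.2, 67.2 and 59.1 FPKM in clone-1, at 9.94, 8.99 and 9.91 in mouse-1 P35, at 0.419, 1.57 and 1.06 in mouse-1 P10 and at 0.175, 0.216 and 0.104 in mouse-2, where it overlapped hepatocytes. P3h4 was also highest in clone-1 (4.10, 4.13 and 3.66) and lowest in mouse-2 (0.644, 0.646 and 0.736), which overlapped mouse-1 P10. Clone-1 stood above the mean of both P10 lines for Fam129a (5.46), P3h4, Psca and Vil1 (19.7% of all genes higher) and below it for Acnat2 (-6.61), Uts2b (-3.08) and Adm2 (-1.19; 6.88% lower).

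The secreted peptides went another way. Uts2b was at 14.3, 11.4 and 13.2 FPKM in mouse-2 and at 12.4, 12.1 and 13.4 in mouse-1 P35, which overlapped, at 10.2, 2.03 and 3.43 in mouse-1 P10 and at 0, 0 and 0.0591 in clone-1. Adm2 was at 11.6, 8.54 and 11.1 in mouse-1 P10, at 7.92, 5.56 and 7.06 in mouse-2, at 3.16, 2.97 and 3.24 in the clone-1 line and at 0.323, 0.885 and 0.565 in mouse-1 P35. Between the P10 lines of both mice, Psca (2.32) and Uts2b (1.39) were higher in mouse-2 (2.22% of all genes) and Vil1 (-1.34) was lower (1.83%).

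**Figure D3:**
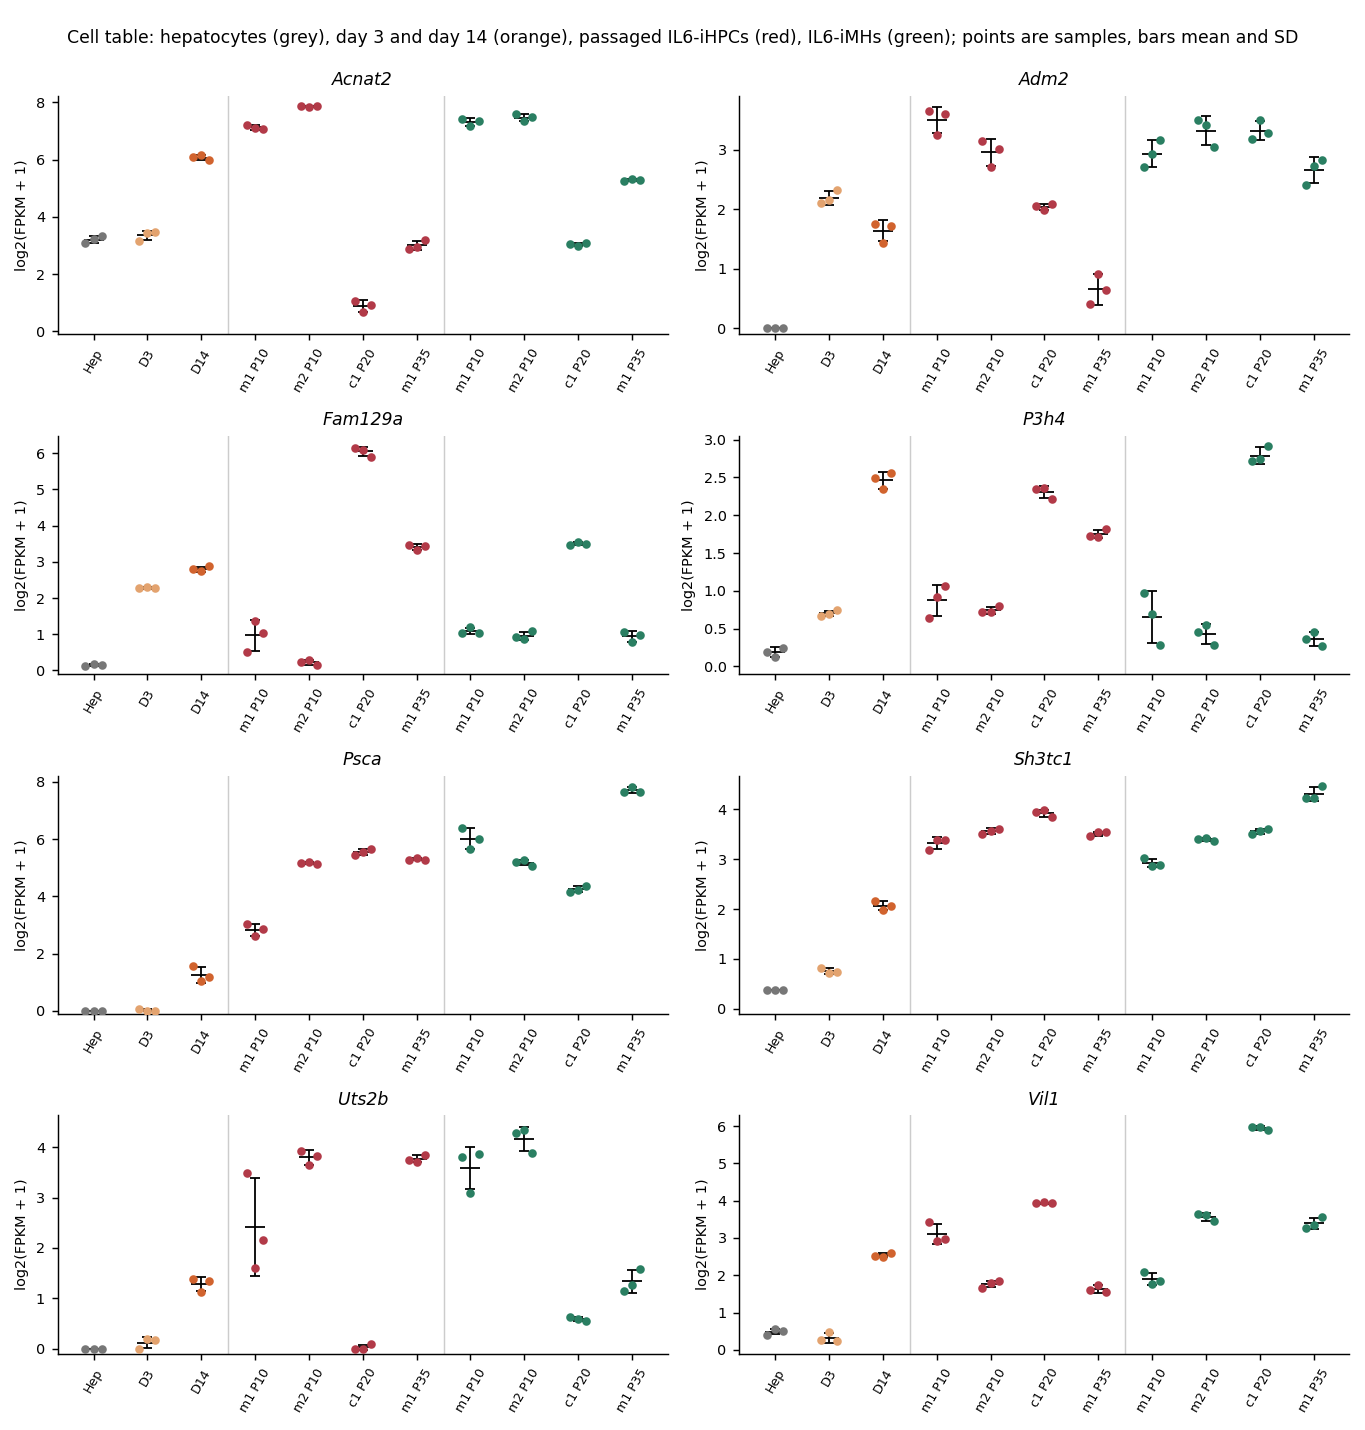
FPKM of the 8 genes in the 11 groups of the cell table, with points for the 3 samples of each group. Acnat2 spans 0.601 to 231 FPKM over the passaged IL6-iHPCs, and Sh3tc1 spans 8.08 to 14.8.

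As a description over the 11 group means (genes share the same libraries), the log2 levels of the 8 genes correlated with each other between -0.73 (Acnat2 and Fam129a) and 0.90 (Psca and Sh3tc1). Fam129a and P3h4 had a correlation of 0.82. Among 12328 genes, those with the most similar pattern were Slc7a7 (0.95) for Fam129a, Evl (0.95) for P3h4, Hrct1 (0.95) for Psca and Htra3 (0.94) for Vil1. For Adm2 it was Cyp39a1 (0.93), for Acnat2 Eri3 (0.92) and for Uts2b Ptges3l (0.89).

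In IL6-iMHs, 7 of 8 genes were above hepatocytes on the mean of the 4 lines, beside 24.8% of all genes that rose and 7.79% that fell, and 6 of 8 without clone-1. The median log2 difference was 0.46 over all genes and 2.81 over the 8. With bounds it was 3.19 over the 8, again not on the scale of the 0.46. P3h4 missed the fold limit (0.87). From IL6-iHPCs to IL6-iMHs, the mean log2 level of the lines rose for Vil1 (1.09), Psca (1.08) and Acnat2 (1.05), beside 6.68% of all genes. It fell for Fam129a (-1.04), beside 21.4%, and the median of all genes was -0.40. For Acnat2 the mean FPKM hardly differed, at 94.4 over the 12 passaged samples and 94.9 over the 12 of IL6-iMHs. With clone-1 left out, 1 of these 4 calls was made, that of Psca, and Vil1 (0.79), Acnat2 (0.69) and Fam129a (-0.54) missed the fold limit. Under quantile normalization Acnat2 (0.93) and Fam129a (-0.59) missed it and Adm2 (1.17) was called higher. Fam129a also missed it without mouse-1 P10 IL6-iHPCs replicate 2 (-0.99). Cholangiocyte markers fell over the same step, from 2715 to 11014 FPKM per passaged sample to 218 to 1420, and their part in these values was not tested.

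These means hide lines, or passages of the same line, that moved in opposite directions. Psca rose in mouse-1 P10, from 5.13 to 7.13 up to 82.0, 49.7 and 64.1 FPKM (log2 difference 3.18), and in mouse-1 P35, to 201, 227 and 200 (2.42), but fell in clone-1, to 17.0, 17.9 and 19.5 (-1.29), and overlapped in mouse-2 (36.2, 37.4 and 32.7). Vil1 rose in clone-1 to 61.8, 62.1 and 58.1 (2.01), in mouse-2 to 11.4, 11.3 and 9.88 (1.80) and in mouse-1 P35 to 8.70, 9.15 and 10.9 (1.77), and fell in mouse-1 P10 to 3.26, 2.39 and 2.61 (-1.20). Uts2b fell in mouse-1 P35 to 1.22, 1.42 and 2.00 (-2.43) and was called higher in mouse-1 P10 (13.0, 7.55 and 13.5, log2 difference 1.17), where samples overlapped. Psca and Vil1 were thus called in opposite directions in different lines, and Uts2b in P10 and P35 of the mouse-1 line. These were 3 of 8 genes against 2.90% of all genes, with both passages counted as separate lines. With clone-1 left out this held for Uts2b and Vil1, 2 of 8 against 1.47%, and Psca then ranged from 0.03 to 3.18.

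Acnat2 rose where it had been low, to 37.1, 38.8 and 37.7 FPKM in mouse-1 P35 (2.28) and to 7.21, 6.90 and 7.46 in clone-1 (2.15), and was not called in either P10 line (170, 143 and 161 in mouse-1 P10, 191, 161 and 178 in mouse-2). Adm2 rose in the same pair of lines, to 4.32, 5.64 and 6.13 (2.00) and to 8.14, 10.4 and 8.71 (1.28). Fam129a fell there, to 1.09, 0.711 and 0.977 in mouse-1 P35 (-2.47) and to 10.1, 10.7 and 10.2 in clone-1 (-2.55). P3h4 fell in mouse-1 P35 to 0.292, 0.370 and 0.206 (-1.39), and Sh3tc1 passed the limit in no line, with 17.7, 17.6 and 21.2 in mouse-1 P35 as its highest values. Of all genes, 9.59% rose and 15.4% fell in mouse-1 P10, 11.2% and 28.6% in mouse-2, 5.86% and 17.7% in the clone, and for mouse-1 P35 10.2% and 35.1%. The count of the 8 genes was 2 higher and 1 lower in mouse-1 P10, 1 and 0 in mouse-2, 3 and 2 in the clone, and for mouse-1 P35 4 and 3.

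**Figure D4:**
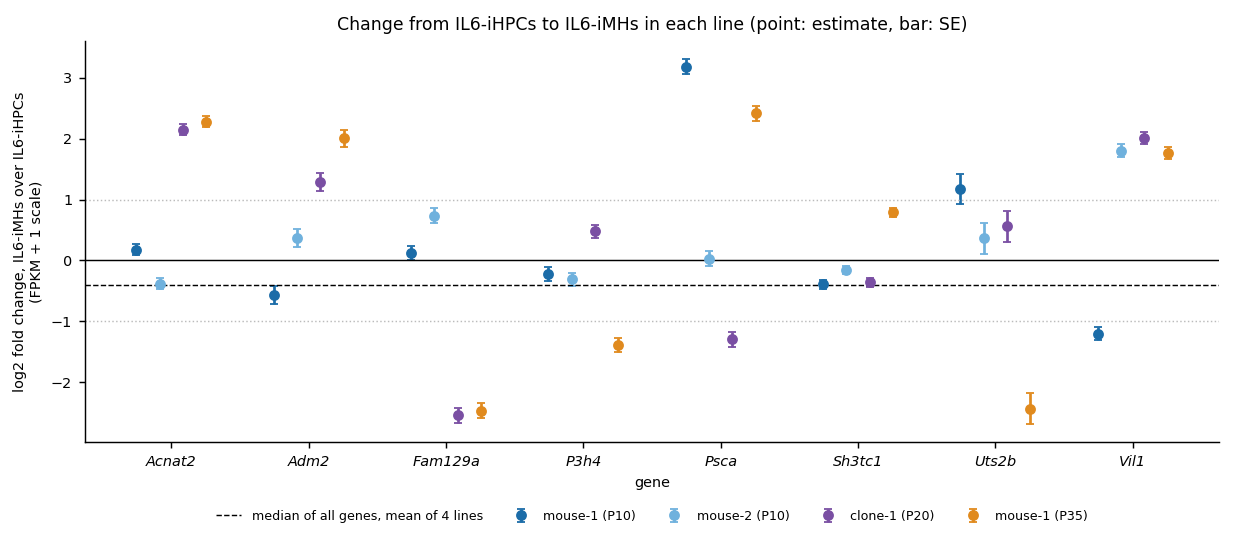
Log2 difference from IL6-iHPCs to IL6-iMHs for each gene and line (points, with SE), with a dashed line at the median of all genes (-0.40) and dotted lines at the 2-fold limit. Psca, Uts2b and Vil1 have points beyond the limit on both sides, and Sh3tc1 has none.

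In regenerating liver, Acnat2 was called higher at PHX-24h, PHX-D3 and PHX-D7, and Fam129a at PHX-D7 only. Acnat2 was at 4.46, 5.70 and 5.53 FPKM in normal liver, at 1.52, 7.24 and 6.42 at PHX-6h and at 64.3, 71.9 and 100.2 at PHX-24h, 15.1-fold above normal (log2 difference 3.66, SE 0.47, limma adjusted p = 8.18e-05). It was at 65.2, 14.2 and 37.7 at PHX-D3 (2.45, adjusted p = 1.93e-03), at 17.9, 15.9 and 18.5 at PHX-D7 (1.57, adjusted p = 2.03e-02) and at 9.12, 19.7 and 10.9 at PHX-D14 (1.13, adjusted p = 0.118). Acnat2 thus had its highest mean at 24 h, where samples overlapped those of PHX-D3. At PHX-24h 1 of the 4 genes tested rose and none fell, beside 3.74% and 4.16% of 11114 genes. None of the 4 was called at PHX-6h (4.78% of all genes rose, 11.5% fell) or PHX-D14 (0.981% and 2.00%), 1 rose at PHX-D3 (3.33% and 2.49%) and 2 rose at PHX-D7 (7.81% and 1.03%). Fam129a (mean 0.928 FPKM in normal liver) and P3h4 (0.544) were too low to be called lower on the log2(FPKM + 1) scale. Without PHX-D3 replicate 2, the lowest Acnat2 value at PHX-D3, the Acnat2 difference at PHX-D3 was 3.03 and that at PHX-D14 was called (limma adjusted p = 0.0350). The PHX-D7 call was lost without normal liver replicate 1, PHX-D7 replicate 1 or PHX-D7 replicate 3 (adjusted p = 0.0584 to 0.0611).

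Acnat2 shares sequence with its neighbour Acnat1, since 31.5% of the 1615 windows of 50 bases in its longest transcript occur letter for letter in Acnat1. How the authors divided such reads is not given in the sources used here. Mean Acnat1 was 28.3 FPKM at PHX-24h against 22.0 in normal liver, where samples overlapped. At D14 of culture it was 14.7, 12.2 and 11.9 against 4.77, 5.22 and 6.24 at D3, higher with no overlap. These are values of the 2 genes side by side, without a test between them.

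Fam129a was at 0.928, 0.847 and 1.01 FPKM in normal liver and at 4.66, 3.95 and 3.23 at PHX-D7, 4.25-fold higher with no overlap (log2 difference 1.35, SE 0.14, limma adjusted p = 4.24e-06). At PHX-6h (0.227, 0.431 and 0.332) and PHX-24h (0.420, 0.262 and 0.453) every sample lay below every normal one (beside 48.6% and 25.4% of all genes), by -0.54 and -0.49 on the log2 scale, under the fold limit at a pseudocount of 1 but past it at 0.1 (-1.28 and -1.13). Sh3tc1 stood at 3.91, 2.80 and 2.83 at PHX-D7 against 2.22, 1.77 and 1.59 in normal liver (0.54, adjusted p = 1.05e-02), also under it. P3h4 stayed between 0.358 and 1.47 and was not called at any time. Summed markers moved at PHX-D7 too, for Kupffer cells 768 to 1111 FPKM against 125 to 212 in normal liver and for T and NK cells 16.6 to 21.4 against 1.11 to 2.26. Their part in the Fam129a and Sh3tc1 values was not tested.

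The other listed genes were hardly detected in liver. Vil1 lay between 0.00926 and 0.128 FPKM in all 18 samples, Psca had at most 2 reads in a group, and Adm2 was at 0 in all samples except PHX-D3 replicate 2 (76 reads, 1.02 FPKM). At D14 of culture these 3 genes were at 1.05 FPKM or more in every sample, but the tables were normalized separately and levels were not tested between them.

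**Figure D5:**
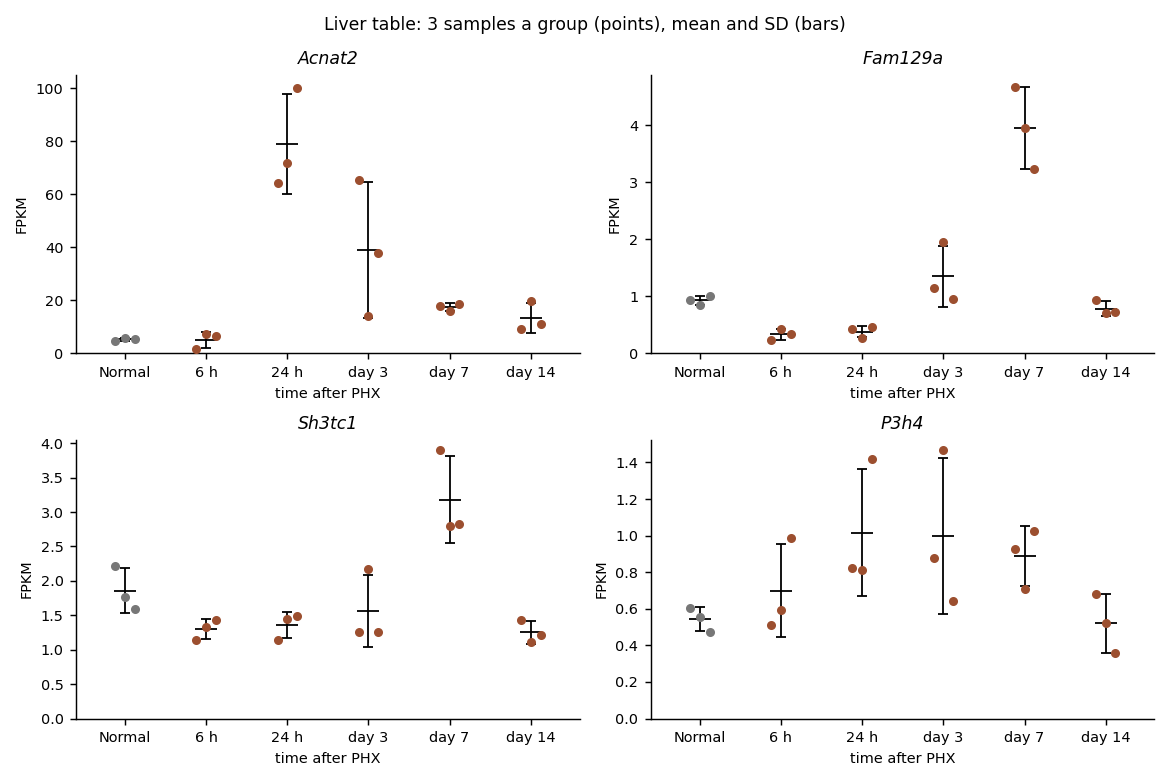
FPKM of the 4 genes tested in liver, with points for the 3 samples of normal liver and of each time after PHX and bars for mean and SD. Acnat2 has its highest mean at 24 h (64.3 to 100.2), with samples that overlap PHX-D3, and Fam129a at day 7 (3.23 to 4.66).

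Relatives of the 8 genes, from lists made with earlier results of these data known, were followed in passaged IL6-iHPCs against hepatocytes (over all genes 48.1% rose, 11.3% fell and the median was 0.93). Of 9 acyl-CoA genes near Acnat2, 3 rose, among them the thioesterases Acot2 (3.49) and Acot1 (2.84), and 2 fell, Acot12 (-2.91) and the bile acid conjugating Baat (-3.59), with a median of 0.64. At PHX-24h 4 of the 9 rose, beside 3.74% of all genes, namely Acot2 (2.12), Acot1 (1.67), Acot3 (1.52) and Acot4 (1.36). Of 17 villin relatives and microvillus genes, 10 rose, led by the membrane linker Ezr (6.87) and the actin regulator Eps8 (5.58), with a median of 1.90. Of these 17, 1 fell, the adhesion protein Cdhr5 (-2.14, mean FPKM 13.0 against 26.4 in hepatocytes). Of 10 Ly6/uPAR genes 4 rose, led by Plaur (4.59), the urokinase receptor, and Ly6c1 (4.29), and 3 fell, among them Gpihbp1 (-2.72), with a median of 0.32.

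Of 13 collagen-modifying genes 6 rose, led by the lysyl hydroxylase Plod2 (4.32) and Crtap (3.47), and none fell, with a median of 0.93 beside 0.93 over all genes. Of 3 relatives of Fam129a and Sh3tc1, Fam129b rose (5.24). None of the 2 calcitonin family genes tested passed the limit, and no urotensin gene passed the filter. Of 22 IL6-JAK-STAT3 genes 12 rose, a share near that of all genes, led by lipocalin Lcn2 (9.80) and the oncostatin M receptor Osmr (4.55), and 4 fell, lowest the receptor Lifr (-5.83), with a median of 1.09. Of 20 amino acid stress genes 15 rose, led by the serine synthesis enzymes Psat1 (7.40) and Phgdh (7.22), with a median of 2.94. Called lower were 2, Gdf15 (-1.01) and Cth (-3.71). Mean FPKM of Gdf15 was 57.1 in passaged IL6-iHPCs against 63.0 in hepatocytes, so its call rests on the mean of log2 levels. At PHX-24h 12 of the 22 IL6-JAK-STAT3 genes rose and 1 fell, beside 3.74% and 4.16% of all genes (median 1.12, over all genes -0.017), while none of 17 amino acid stress genes was called. Counts of the lists at other times after PHX, and of the other lists at PHX-24h, are not reported here.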

How the data were processed

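The deposited values were taken as FPKM made by the authors, since the unit is not stated in the sources used here. Values are not whole numbers, and they are whole multiples of a step per gene and sample (99.6% to 100% of values in a sample within 0.02 of a whole read), which gives the implied depth. Per the submitters' processing notes TopHat 1.4.1, Cufflinks 1.3.0 and build mm10 were named, with no role given, and strand handling was not stated. The day 7 table was used for its 480 complete entries only, with 1 cut entry left out. Symbols listed more than 1 time were averaged.

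The 8 genes, the gene lists and the tests were chosen with earlier results of these data known. A gene entered the tests if 3 or more samples reached 1 FPKM. Log2(FPKM + 1) was fitted with limma 3.58.1 in R 4.3.3, all groups of a table in 1 fit, and Benjamini-Hochberg adjustment ran over every tested gene. Calls need an adjusted p under 0.05 and at least 2-fold. Named genes are the 8 genes, the genes most alike each of them over the 11 group means (that of Sh3tc1 is not reported here), and the 2 highest and 2 lowest changed genes of each list in passaged IL6-iHPCs. Bounds use a floor of 3 reads over a group and, like reads, cover counting error only. Other settings were 0.1 as pseudocount, no filter, a 5 FPKM filter, quantile normalization, a replicate block, no or a 4-fold limit, fits of the compared groups only and leaving out each sample. Chosen after seeing the data were limma voom on the recovered reads, leaving out PHX-D3 replicate 2 and leaving out clone-1. Scripts were tested on simulated data. Python 3.11.15, pandas 2.3.3, numpy 2.4.6 and matplotlib 3.10.9 were used.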

Additional observations from a re-analysis of the deposited data

Results flagged for a closer look

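The change from IL6-iHPCs to IL6-iMHs differed between the 4 lines for all 8 genes in limma's test of the difference, which 96.3% of all genes also passed, so the 8 genes are not set apart by it. The adjusted p was 2.19e-18 for Acnat2, 6.44e-12 for Adm2, 4.30e-18 for Fam129a and 6.08e-11 for P3h4. It was 1.02e-19 for Psca, 3.49e-12 for Sh3tc1, 4.74e-10 for Uts2b and 1.48e-18 for Vil1. With clone-1 left out all 8 also passed, as did 91.5% of all genes. Over the 4 lines the log2 differences of Psca ran from -1.29 to 3.18, and without clone-1 from 0.03 to 3.18, while those of Uts2b ran from -2.43 to 1.17 and those of Sh3tc1 from -0.40 to 0.79 either way. The samples of a line are technical repeats, so these p-values cover technical error only.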

How the results depend on the processing

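Counts of the 8 genes called moved as follows. At D3, 2 became 4 under quantile normalization (2 higher and 2 lower), without a fold limit and with voom. At D14, 8 became 4 under quantile normalization and with a 4-fold limit, and from D3 to D14, 6 became 2 with a 4-fold limit. In passaged IL6-iHPCs 8 became 5 under quantile normalization. From IL6-iHPCs to IL6-iMHs 4 became 0 with a 4-fold limit and 1 without clone-1. There the genes called also changed: Acnat2 (0.93) and Fam129a (-0.59) were lost and Adm2 (1.17) gained under quantile normalization, and Fam129a was lost and Adm2 gained with a pseudocount of 0.1 (-0.91 and 1.08) and with voom (-0.80 and 1.16), where P3h4 was called lower too. Calls in HCM-Hepa-D7 are not given, since its samples also chose the genes. At PHX-6h 0 became 1, and at PHX-24h 1 became 2, with a pseudocount of 0.1, without a fold limit and with voom. At PHX-D7 2 became 1 with the 5 FPKM filter and 0 with a 4-fold limit. At PHX-D14 0 became 1 with only the compared groups fitted and without PHX-D3 replicate 2. Leaving out 1 sample at a time gave 3 to 4 from IL6-iHPCs to IL6-iMHs and 1 to 2 at PHX-D7. Log2 differences that turned sign under quantile normalization were, at D3, Acnat2 (0.14 to -1.12), P3h4 (0.51 to -0.44), Sh3tc1 (0.38 to -0.78) and Psca (0.02 to -0.016), from IL6-iHPCs to IL6-iMHs, P3h4 (0.032), Sh3tc1 (0.43) and Uts2b (0.25), at PHX-6h Acnat2 (0.087) and at PHX-D14 Fam129a (0.048) and P3h4 (0.11). Uts2b from IL6-iHPCs to IL6-iMHs (-0.084) also turned with a pseudocount of 0.1 (0.29), with voom (0.92) and without mouse-1 P10 replicate 1 (-0.19 to 0.050 over all samples left out in turn), and Sh3tc1 without clone-1 (0.078). Acnat2 at PHX-6h turned without PHX-6h replicate 1 (-0.52 to 0.33 over all samples left out in turn), and P3h4 at PHX-D14 without normal liver replicate 1 or PHX-D14 replicate 3 (-0.10 to 0.052). None of these passed both limits before the change of setting. The cause was not tested. P3h4 failed the filter without PHX-D3 replicate 2. The replicate numbers did not pair samples (mean same-number correlation in the cell table -0.015). A fit with the replicate block changed no count, such as 2 at D3, 8 at D14 and 8 in passaged IL6-iHPCs. Low values limit Psca, Adm2 and Vil1 in liver.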
